A study of Mus musculus with 12 samples.

Results

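The integrin and laminin genes were followed across RNA-seq libraries of B16F10 cells, an established mouse melanoma cell line kept in culture. The members were taken by a pattern in their gene symbols, with earlier results of these data known. Of the 24421 gene symbols in the count files, 38 are described. These were 18 integrin α subunits, 9 integrin β subunits, 10 laminin chains, and Itgb3bp, which fits the pattern by its letters but encodes the nuclear protein CENP-R, a component of centromeres that also binds the tail of β3 integrin. Of the 38 genes, 22 reached at least 1 CPM (counts scaled to a common library size) in at least 3 libraries and entered the tests: 11 α subunits, 5 β subunits, 5 laminin chains and Itgb3bp. The other 16 lay below that level.

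The libraries fell into 4 groups of 3. Control cells received the vehicle dimethyl sulfoxide (DMSO). DAC cells received 25 nM 5-aza-2′-deoxycytidine, an inhibitor of DNA methyltransferases, for 72 h. SFN cells received sulforaphane, an isothiocyanate of cruciferous vegetables, for the last 48 h. DAC+SFN cells received 25 nM DAC for 72 h with 5 µM SFN for the last 48 h. For SFN alone the labels state 5 nM while the methods state 5 µM; taken at the labels, SFN and DAC+SFN cells therefore also differed in SFN dose. All groups came from a single line without tumour stroma or immune cells, and each group held 3 independent culture repeats, numbered 1 to 3.

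Integrins are αβ heterodimers that link the extracellular matrix to the actin cytoskeleton, and the β subunit tail recruits talin, kindlin and the kinases of focal adhesions. Laminins are αβγ heterotrimers that form the sheet of the basement membrane and are bound by the integrins α3β1, α6β1, α6β4 and α7β1. The αv integrins bind the RGD sequence of fibronectin and vitronectin, and α5β1 that of fibronectin. The integrin α4β1 binds fibronectin and VCAM-1, and α1β1, α2β1, α10β1 and α11β1 bind collagens. In melanoma cells these receptors are known for their roles in adhesion, invasion and spread to distant organs.

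Upstream sequences are shown for the genes that carry the results: Itgb1 and Itgav, abundant β and α transcripts that rose in both SFN groups, Itga8, the α subunit with the steepest increase, and Lama5, a laminin chain that rose in the combination treatment. Each is the 250 bases before the annotated start, 5′ to 3′ on the gene's own strand, from RefSeq on GRCm38.p6. The windows lie at chr8:128685404-128685653 on the plus strand (Itgb1), chr2:83724147-83724396 on the plus strand (Itgav), chr2:12301945-12302194 on the minus strand (Itga8) and chr2:180225860-180226109 on the minus strand (Lama5). Capitals mark TGACNNNGC, the core letters of the antioxidant response element, searched on both strands.
Itgb1: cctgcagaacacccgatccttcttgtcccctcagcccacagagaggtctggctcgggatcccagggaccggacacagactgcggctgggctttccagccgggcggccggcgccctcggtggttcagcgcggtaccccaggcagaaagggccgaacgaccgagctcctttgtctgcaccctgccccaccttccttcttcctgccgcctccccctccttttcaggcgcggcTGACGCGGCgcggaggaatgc
Itgav: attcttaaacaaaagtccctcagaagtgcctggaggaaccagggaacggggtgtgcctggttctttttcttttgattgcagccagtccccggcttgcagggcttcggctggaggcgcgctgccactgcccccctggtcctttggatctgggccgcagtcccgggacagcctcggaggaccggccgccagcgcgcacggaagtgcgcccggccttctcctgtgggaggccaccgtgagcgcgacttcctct
Itga8: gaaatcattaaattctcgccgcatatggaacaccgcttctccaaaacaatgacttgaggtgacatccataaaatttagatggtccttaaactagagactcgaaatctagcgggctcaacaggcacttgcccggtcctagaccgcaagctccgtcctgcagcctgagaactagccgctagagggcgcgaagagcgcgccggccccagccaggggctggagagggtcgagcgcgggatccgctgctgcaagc
Lama5: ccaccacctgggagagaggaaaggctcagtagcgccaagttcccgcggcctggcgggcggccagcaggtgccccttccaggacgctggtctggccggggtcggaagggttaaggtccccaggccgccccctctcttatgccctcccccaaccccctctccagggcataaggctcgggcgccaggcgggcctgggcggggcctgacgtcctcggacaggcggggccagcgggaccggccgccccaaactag
RefSeq windows were found for 25 of the 38 genes, with 28 windows in all. TGACNNNGC stood in 10.2% of all 32841 windows of this length, and among these genes in those of Itgb1, 21 bases before the start, Itga9, 145 bases before the start, and Itgb6, 55 bases before the start. The Itga9 window lies inside the annotated gene, and no match was found in the windows of Itgav, Itga8 and Lama5. TGANTCA, the AP-1 motif, stood in 6.75% of all windows and, among these genes, in that of Itgax. The 4 windows printed above are rich in CG dinucleotides, the substrate of DNA methylation, with 21 in Itgb1, 19 in Lama5 and 18 each in Itga8 and Itgav, against a median of 6 over all windows. DNA methylation was not measured in these libraries.

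Sequencing depth was between 15880957 and 27291436 counts per library, so that 3 counts, taken as the floor of detection, stood for 0.112 to 0.191 CPM. All 12 melanocytic markers, among them Mitf, Sox10, Tyrp1 and Pmel, were expressed in every library, with a summed level between 22800 and 31700 CPM. Of these, Pax3 and Trpm1 were called down after SFN, and after DAC+SFN Pax3, Tyrp1 and Pmel were called down and Slc45a2 and Oca2 up. Leukocyte markers summed to 1.72 to 3.75 CPM in control and 3.64 to 6.99 CPM in DAC+SFN, with Lyz2 called up after DAC+SFN (log2 fold change 1.02, adjusted p = 0.0289 by the edgeR fit), Ptprc at no more than 2 counts, and Cd4, Adgre1, Cd14, Ncr1 and Nkg7 at 0 counts throughout, and that list of 17 contains Itgam, Itgal, Itgax and Itgb2 themselves. The platelet markers Pf4, Gp1ba and Gp6, the endothelial marker Cdh5 and the keratinocyte markers Krt1 and Krt10 were also at 0 counts in every library. Others on these lists were detected in every library, namely Gp9 (platelet, 2 to 22 counts), Vwf and Pecam1 (endothelial, 30 to 164 and 1 to 11) and Cdh1 (keratinocyte, 13 to 31), and Vwf and Cdh1 were not called after any treatment. Of the leukocyte list, Cd79a, Lyz2 and Itgb2 were detected in every library (5 to 19, 25 to 129 and 4 to 18 counts). The fibroblast list varied between 31.9 and 386 CPM, mostly through Col1a1, with a wide range inside each group. Of its members Pdgfra was called down after SFN (log2 fold change -0.84, adjusted p = 0.024 by the edgeR fit) and DAC+SFN (-0.73, adjusted p = 0.0249). Pdgfrb held 207 to 506 counts in every library and was not called after any treatment. The part of these markers in the results was not tested.

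Levels of different genes were compared as TMM-normalized CPM per kilobase of annotated exon. Itgb1, the partner of most α subunits, was the most abundant, with a mean of 187 over the 12 libraries and a range of 161 to 234. Lamc1 followed with 27.8, Itgav with 19.1, Itga6 with 16.4, Lamb2 with 15.6, Itgb5 and Itga5 with 15.4 each, and Itga4 with 10.5. The ranges of Itgb1 and of Lamc1 (24.6 to 31.5) overlapped with no other gene, while from Itgav downward the ranges of neighbours in this order overlapped. With the longest transcript as the length, 7 of these 8 genes stayed among the top 8 and Lama4 took the place of Itga4. The order below Itgb1 depended on that choice, since with the longest transcript Itga6 averaged 34.4, above Lamc1 (30.2) and Itgav (29).

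**Figure D1:**
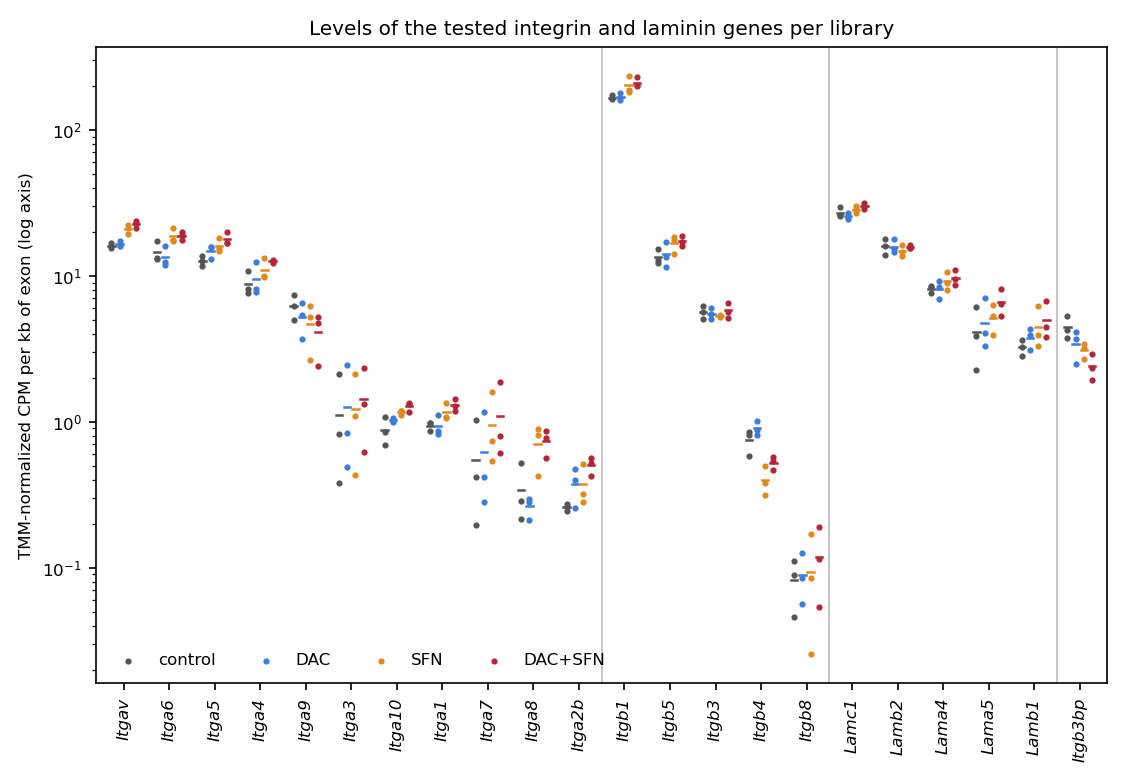
Level of the 22 tested genes in each of the 12 libraries, in TMM-normalized CPM per kilobase of exon on a log axis, by gene on the horizontal axis. Points are libraries, coloured by group, and short bars are group means of 3 libraries; Itgb1 lies between 161 and 234, above every other gene.

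Itgb1 held 89.2% ± 1.15 (SD, n = 3) of the summed β level per kilobase in control and 89.7% ± 0.783 in DAC+SFN. Itgb5, the vitronectin receptor partner of αv, held 7.25% ± 0.94 in control, and Itgb3, its other RGD-binding partner, held 3.04% ± 0.378. Among the α subunits in control, Itgav held 25.8% ± 1.47, Itga6 held 23.1% ± 3.43, Itga5 held 20.2% ± 1.17, Itga4 held 14.1% ± 2.33 and Itga9 held 9.92% ± 2.32. The share of Itga9 was 4.99% ± 1.85 in DAC+SFN, while Itgav held 27.4% ± 0.928, Itga6 22.9% ± 1.63, Itga5 21.5% ± 1.93 and Itga4 15.2% ± 0.661 there.

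Of the laminin chains, Lamb2 made up 83% ± 1.94 of the summed β chain level in control. The α chains were Lama4, with 67.3% ± 11.8, and Lama5, with 32.3% ± 11.6. In DAC+SFN, Lama4 held 59.3% ± 8.01, Lama5 40.2% ± 7.86, and Lamb1 23.8% ± 5.68 of its chain against 17% ± 1.94 in control. The summed α integrin level per kilobase was 62.7 ± 2.47 in control cells, 64.2 ± 4.45 in DAC cells, 77.3 ± 4.91 in SFN cells and 82.5 ± 1.55 in DAC+SFN cells, and the summed laminin α level was 12.3 ± 1.6, 13 ± 0.889, 14.5 ± 0.208 and 16.4 ± 0.387. For both sums the SFN and the DAC+SFN libraries lay above all control libraries. The summed laminin β level was 19.1 ± 2.09, 19.6 ± 1.77, 19.4 ± 0.776 and 20.8 ± 1.36 in the same order, and its groups overlapped.

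SFN raised 10 and lowered 3 of the 22 tested genes, DAC+SFN raised 15 and lowered 2, mostly by less than 2-fold, and DAC alone changed none of them by the test used. A gene was called changed at an adjusted p under 0.05 in edgeR's quasi-likelihood test (two-sided, replicate number as a block, Benjamini-Hochberg over all 11638 genes tested). After DAC alone 0 of the 22 genes were called, where 0.18% of all genes were, and 3 genes (Itgb3bp, Itga5 and Itga9) had an unadjusted p under 0.05, where 10.1% of all genes did. DESeq2 called 0 of them as well. With only the DAC and control libraries in the fit, 4 were called (Lama5, Itgb3bp, Itga5 and Itga9), without a share of all genes to set beside them. After SFN 13 of 22 were called, 10 up and 3 down, against 13.9% of all genes (8.27% up and 5.65% down). After DAC+SFN 17 of 22 were called, 15 up and 2 down, against 31.6% of all genes (17% up and 14.7% down). The median log2 fold change of the 22 genes was 0.04, 0.31 and 0.46 in these comparisons, and that of all genes was 0, 0 and 0.01. The 3 comparisons shared the control libraries.

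The calls rest on comparing libraries of the same repeat. Without the replicate block 0 genes were called after SFN, with 9 at an unadjusted p under 0.05, and 6 after DAC+SFN (Itga1, Itga5, Itga10, Itgav, Itgb1 and Itgb3bp), where 0.198% and 10.3% of all genes were called. Those shares are at the adjusted p, and none is given to set beside the 9 genes. By raw ranges, 6 genes after SFN lay wholly above control and 2 wholly below, where 10.9% and 9.93% of all genes did, and after DAC+SFN 12 lay above and 2 below, where 15.1% and 14.3% of all genes did. The SFN count fell to 5 without control replicate 2 and to 6 without SFN replicate 2, where 6.68% and 6.26% of all genes were called. With any single library left out, 5 of the 13 SFN calls (Itgav, Itga6, Itga7, Itga8 and Itgb4) and 13 of the 17 DAC+SFN calls were kept in all 12 such fits. A change above 2-fold was called in Itga8 after SFN, where 1.28% of all genes passed that rule, and in Itga7 and Itga8 after DAC+SFN, where 2.66% did.

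**Figure D2:**
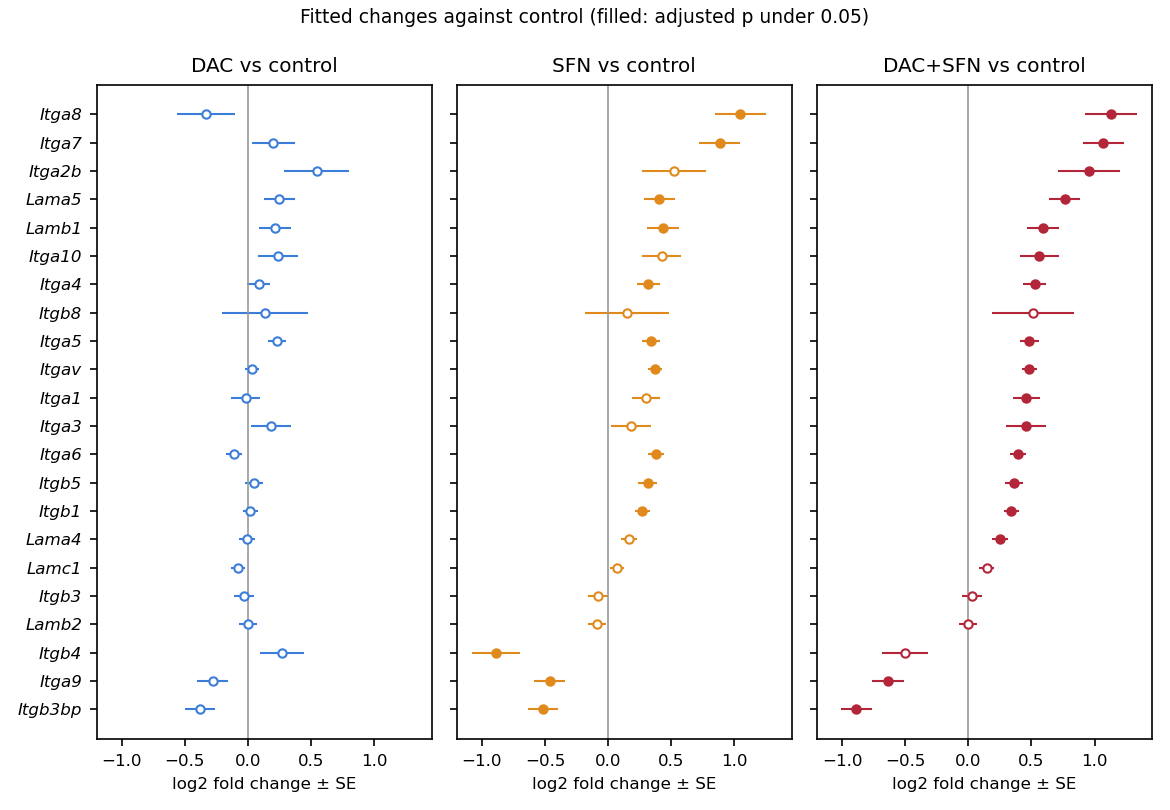
Fitted log2 fold change against control (horizontal axis) with its standard error (bars) for the 22 tested genes after DAC, SFN and DAC+SFN; filled points passed an adjusted p under 0.05. No point is filled after DAC, 13 are after SFN and 17 after DAC+SFN, and most of the filled points lie between 0 and 1.

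Of the α subunits, all 11 tested were called after DAC+SFN, 10 up and Itga9 down, and 7 were called after SFN, 6 up and Itga9 down. Itgav (chromosome 2, 83724397 to 83806916, plus strand, mm10) read 173, 167 and 180 CPM in repeats 1 to 3 of the control libraries, 173, 185 and 175 CPM in those of DAC, 208, 238 and 229 CPM in those of SFN and 230, 246 and 254 CPM in those of DAC+SFN. No SFN or DAC+SFN library overlapped with the control or DAC libraries. The log2 fold change of Itgav was 0.37 ± 0.057 (SE) after SFN (adjusted p = 0.000605) and 0.48 ± 0.057 after DAC+SFN (adjusted p = 3.21e-05), a 1.4-fold increase.

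Itga5, the fibronectin receptor subunit, read 57.9, 62.2 and 67.8 CPM in the control libraries, 64.7, 77.7 and 77.9 in the DAC libraries, 72.7, 90.3 and 75.6 in the SFN libraries and 82.5, 97.8 and 82.8 in the DAC+SFN libraries. Every SFN and DAC+SFN library exceeded the highest control library. Its log2 fold change was 0.34 ± 0.073 after SFN (adjusted p = 0.00632) and 0.48 ± 0.073 after DAC+SFN (adjusted p = 0.000229). After DAC alone it was 0.23 ± 0.073, with an unadjusted p of 0.00746 and an adjusted p of 0.273 by the edgeR fit. The SFN call of Itga5 was lost without control replicate 2 (log2 fold change 0.26, adjusted p = 0.0628) and without SFN replicate 2 (log2 fold change 0.28, adjusted p = 0.0545).

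Itga8, which pairs with β1 and binds nephronectin and other RGD ligands, had the steepest increase of the α subunits. Its levels were 2.12, 3.83 and 1.59 CPM in the control libraries, 2.07, 2.17 and 1.57 in the DAC libraries, 5.98, 6.55 and 3.15 in the SFN libraries and 6.37, 5.7 and 4.16 in the DAC+SFN libraries. The SFN range touched that of control, since SFN replicate 3 lay below control replicate 2, but within each repeat SFN was higher. The fold change was 2.07 after SFN (log2 1.05 ± 0.202, adjusted p = 0.00319) and 2.19 after DAC+SFN (log2 1.13 ± 0.204, adjusted p = 0.000864). These libraries held 31 to 174 counts of Itga8, and 5.05% of its exon bases are shared with the antisense gene E030013I19Rik.

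Itga2b, the platelet subunit that pairs with β3, was low and passed the test after DAC+SFN. It read 1.33, 1.42 and 1.49 CPM in the control libraries, 1.41, 2.17 and 2.58 in the DAC libraries, 1.74, 2.82 and 1.55 in the SFN libraries and 2.32, 3.06 and 2.85 in the DAC+SFN libraries. All SFN and DAC+SFN libraries lay above control, with a log2 fold change of 0.95 ± 0.246 (adjusted p = 0.00908), against 0.52 ± 0.253 after SFN (adjusted p = 0.188). Without control replicate 2 the DAC+SFN change was 0.81 on the log2 scale (adjusted p = 0.0623). Of the other platelet markers Pf4, Gp1ba and Gp6 were at 0 counts and Ppbp at no more than 1, while Gp9 was detected in every library and averaged 0.176 CPM in control cells, 0.249 in DAC cells, 0.565 in SFN cells and 0.375 in DAC+SFN cells. Its part in the Itga2b result was not tested.

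Among the laminin receptors, Itga6 read 119, 157 and 117 CPM in the control libraries, 113, 145 and 107 in the DAC libraries, 160, 192 and 157 in the SFN libraries and 172, 181 and 158 in the DAC+SFN libraries. In each group repeat 2 was the highest, and every DAC+SFN library exceeded every control library. Its log2 fold change was 0.38 ± 0.063 after SFN (adjusted p = 0.00116) and 0.39 ± 0.063 after DAC+SFN (adjusted p = 0.000354), while after DAC it was -0.11 ± 0.063 (adjusted p = 0.597).

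Itga7, a laminin receptor subunit best known from muscle, differed widely between repeats. Control repeats 1 to 3 read 3.4, 1.59 and 8.37 CPM, DAC 3.39, 2.3 and 9.44, SFN 5.98, 4.37 and 12.9, and DAC+SFN 6.51, 4.98 and 15.2. The groups overlapped, yet SFN and DAC+SFN exceeded the control library of their own repeat each time. The fold change was 1.85 after SFN (log2 0.89 ± 0.162, adjusted p = 0.00217) and 2.1 after DAC+SFN (log2 1.07 ± 0.161, adjusted p = 0.000229).

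Itga3, the laminin receptor subunit of epithelial cells, showed the same kind of spread, with 4.74, 2.19 and 12.1 CPM in the control libraries, 4.76, 2.81 and 14 in the DAC libraries, 6.26, 2.48 and 12.2 in the SFN libraries and 7.51, 3.54 and 13.4 in the DAC+SFN libraries. Its DAC+SFN change of 0.46 ± 0.157 on the log2 scale (adjusted p = 0.0388) was the weakest call among the α subunits. The call of Itga3 was lost without control replicate 1 (0.41, adjusted p = 0.141), control replicate 2 (0.41, adjusted p = 0.111), SFN replicate 3 (0.46, adjusted p = 0.0502), DAC+SFN replicate 1 (0.35, adjusted p = 0.183) or DAC+SFN replicate 2 (0.39, adjusted p = 0.111).

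The collagen receptor subunits Itga1 and Itga10 were called after DAC+SFN. Itga1 read 18.2, 16 and 18.2 CPM in the control libraries, 15.3, 20.8 and 16.2 in the DAC libraries, 19.7, 25 and 20.2 in the SFN libraries and 23.8, 26.6 and 21.9 in the DAC+SFN libraries, with a DAC+SFN change of 0.46 ± 0.109 on the log2 scale (adjusted p = 0.00544). Itga10 read 4.42, 3.61 and 5.55 CPM in the control libraries, 5.26, 5.17 and 5.51 in the DAC libraries, 6.12, 6.17 and 5.77 in the SFN libraries and 6.01, 6.99 and 6.91 in the DAC+SFN libraries, with a change of 0.56 ± 0.155 (adjusted p = 0.0128). For both, the SFN and DAC+SFN libraries lay above every control library, although the SFN change missed the threshold (adjusted p = 0.0814 for Itga1 and 0.0835 for Itga10). The Itga10 call after DAC+SFN was lost without control replicate 2 (0.40, adjusted p = 0.0932) and without DAC+SFN replicate 2 (0.47, adjusted p = 0.0648), and 33.5% of the exon bases of Itga10 are shared with the overlapping gene Gm42957 on the same strand, so its counts are uncertain.

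Itga4 and Itga9, close relatives whose products both bind VCAM-1, moved in opposite directions. Itga4 read 107, 151 and 113 CPM in the control libraries, 114, 174 and 109 in the DAC libraries, 139, 186 and 138 in the SFN libraries and 179, 177 and 170 in the DAC+SFN libraries. Repeat 2 stood above the others in the control, DAC and SFN groups, and the DAC+SFN libraries were nearly level and above all control libraries. The change of Itga4 was 0.32 ± 0.093 on the log2 scale after SFN (adjusted p = 0.0339) and 0.53 ± 0.093 after DAC+SFN (adjusted p = 0.000776). Leaving out any single control or SFN library ended the SFN call of Itga4, with log2 changes from 0.27 without control replicate 1 (adjusted p = 0.162) to 0.34 without control replicate 2 (adjusted p = 0.0809).

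Itga9 (chromosome 9, 118606690 to 118901003, plus strand, mm10) read 56.9, 38.3 and 47.5 CPM in the control libraries, 50.4, 28.2 and 41.5 in the DAC libraries, 47.7, 20.4 and 40.2 in the SFN libraries and 36.3, 18.4 and 40.2 in the DAC+SFN libraries. It was the only α subunit lower than the control of the same repeat in all 9 treated libraries. The log2 fold change was -0.46 ± 0.123 after SFN (adjusted p = 0.0213) and -0.64 ± 0.124 after DAC+SFN (adjusted p = 0.00152), and -0.28 ± 0.123 after DAC (unadjusted p = 0.0382, adjusted p = 0.456 by the edgeR fit). Without control replicate 2 the SFN change of Itga9 was -0.30 (adjusted p = 0.137), without SFN replicate 2 it was -0.35 (adjusted p = 0.147) and without SFN replicate 3 it was -0.49 (adjusted p = 0.0567).

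**Figure D3:**
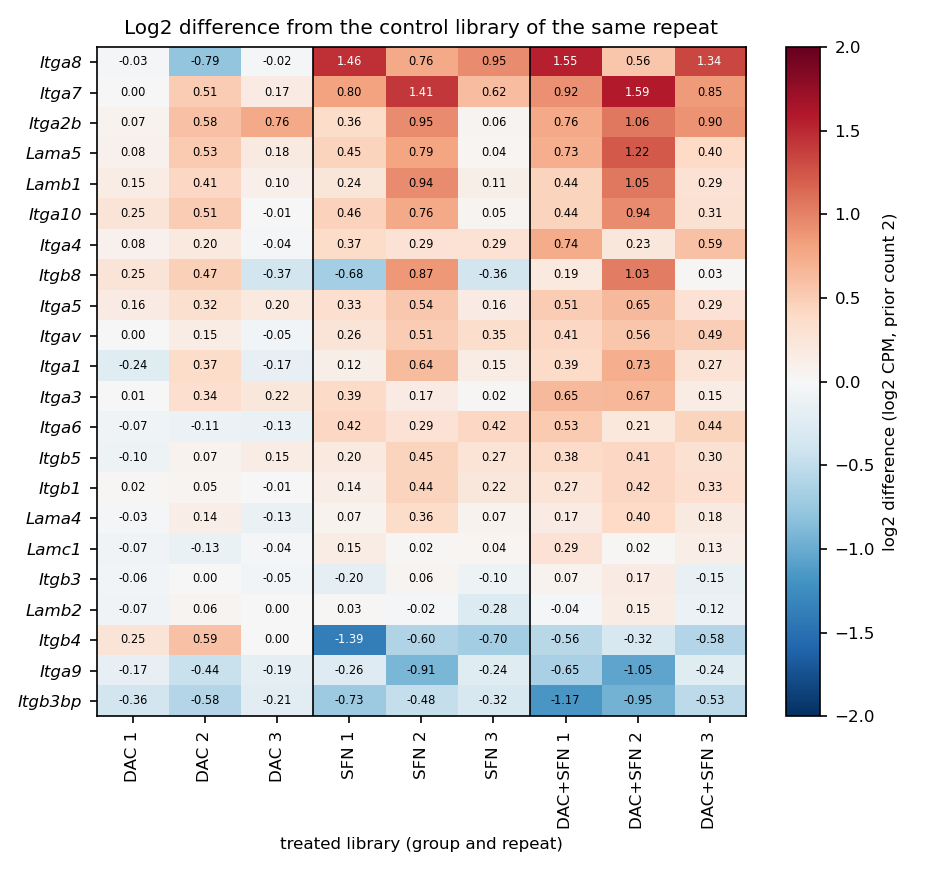
Log2 difference (log2 CPM with a prior count of 2) between each treated library (columns) and the control library of the same repeat, for the 22 tested genes (rows); red is higher and blue is lower than control. The SFN and DAC+SFN columns are red for most genes and blue for Itgb4, Itga9 and Itgb3bp, while the DAC columns are mostly pale.

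Of the 5 β subunits tested, Itgb1 and Itgb5 were called up after SFN and after DAC+SFN, and Itgb4 was called down after SFN. Itgb1 (chromosome 8, 128685654 to 128733200, plus strand, mm10) read 671, 704 and 660 CPM in the control libraries, 680, 729 and 655 in the DAC libraries, 741, 956 and 771 in the SFN libraries and 811, 942 and 831 in the DAC+SFN libraries. All SFN and DAC+SFN libraries exceeded all control and DAC libraries. The change was 0.27 ± 0.059 on the log2 scale after SFN (adjusted p = 0.00739) and 0.34 ± 0.059 after DAC+SFN (adjusted p = 0.00067), a 1.27-fold increase of the most abundant gene of the family. The SFN call of Itgb1 was lost without control replicate 2 (0.22, adjusted p = 0.0703) and without SFN replicate 2 (0.20, adjusted p = 0.086).

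Itgb5 read 43.6, 45.9 and 54.4 CPM in the control libraries, 40.8, 48 and 60.5 in the DAC libraries, 50.3, 62.8 and 65.7 in the SFN libraries and 56.6, 60.8 and 66.9 in the DAC+SFN libraries. Its DAC+SFN libraries all lay above control, and the SFN range overlapped with it. The change was 0.31 ± 0.072 after SFN (adjusted p = 0.00956) and 0.36 ± 0.072 after DAC+SFN (adjusted p = 0.00173) on the log2 scale. Without control replicate 2 (0.27, adjusted p = 0.0761) or SFN replicate 2 (0.24, adjusted p = 0.0889) the SFN call of Itgb5 was lost. Itgb3 stayed between 29.8 and 38.7 CPM in all libraries, with changes of -0.08 ± 0.08 after SFN and 0.03 ± 0.08 after DAC+SFN (adjusted p = 0.553 and 0.792).

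Itgb4, the hemidesmosome subunit that pairs with α6 alone, went the other way. It read 5.93, 4.09 and 5.7 CPM in the control libraries, 7.08, 6.19 and 5.69 in the DAC libraries, 2.21, 2.67 and 3.48 in the SFN libraries and 4.01, 3.26 and 3.78 in the DAC+SFN libraries. All SFN and DAC+SFN libraries lay below the lowest control library. The change was -0.89 ± 0.188 on the log2 scale after SFN (1.85-fold lower, adjusted p = 0.00588) and -0.50 ± 0.184 after DAC+SFN, where the adjusted p was 0.0504 and 9 of the 23 alternatives brought it under 0.05. Compared to DAC, the change of Itgb4 was -0.77 ± 0.181 (adjusted p = 0.0108). Itgb8, a receptor for latent TGF-β, held only 6 to 50 counts per library and had a change of 0.51 ± 0.327 after DAC+SFN (adjusted p = 0.251).

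Of the 5 laminin chains tested, 2 rose after SFN (Lama5 and Lamb1) and 3 after DAC+SFN (these and Lama4), and none fell. Lama5 (chromosome 2, 180176373 to 180225859, minus strand, mm10), the α chain of many epithelial and vascular basement membranes, read 43.9, 25.9 and 70.2 CPM in the control libraries, 46.4, 37.4 and 79.8 in the DAC libraries, 60.2, 44.7 and 72.1 in the SFN libraries and 73.1, 60.4 and 92.4 in the DAC+SFN libraries. Within each repeat control was the lowest and DAC+SFN the highest, although the groups overlapped. The change was 0.41 ± 0.121 on the log2 scale after SFN (adjusted p = 0.0372) and 0.76 ± 0.121 after DAC+SFN (adjusted p = 0.000324), a 1.7-fold increase. The SFN call of Lama5 was lost without control replicate 1 (0.43, adjusted p = 0.1), control replicate 2 (0.24, adjusted p = 0.224), SFN replicate 1 (0.34, adjusted p = 0.16) or SFN replicate 2 (0.35, adjusted p = 0.152).

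Lama4, the other α chain of these cells, read 103, 101 and 91.7 CPM in the control libraries, 101, 111 and 83.7 in the DAC libraries, 108, 129 and 96 in the SFN libraries and 115, 133 and 104 in the DAC+SFN libraries. Its change after DAC+SFN was 0.25 ± 0.064 on the log2 scale (adjusted p = 0.00868), and without control replicate 2 it was 0.16 (adjusted p = 0.0856). After SFN the change was 0.17 ± 0.064 (adjusted p = 0.0945).

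Lamb1 read 28, 32.1 and 36.1 CPM in the control libraries, 31, 42.6 and 38.8 in the DAC libraries, 32.9, 61.8 and 39 in the SFN libraries and 38, 66.6 and 44.2 in the DAC+SFN libraries. Repeat 2 rose most, by 0.94 on the log2 scale after SFN and 1.05 after DAC+SFN, against 0.11 and 0.29 in repeat 3. The fitted change of Lamb1 was 0.44 ± 0.126 after SFN (adjusted p = 0.0314) and 0.59 ± 0.126 after DAC+SFN (adjusted p = 0.00265). Its SFN call was lost without control replicate 1 (0.50, adjusted p = 0.0574), control replicate 2 (0.23, adjusted p = 0.241), SFN replicate 1 (0.49, adjusted p = 0.0554) or SFN replicate 2 (0.28, adjusted p = 0.221). Lamb2, the main β chain, stayed between 83.8 and 108 CPM, with changes of -0.09 ± 0.071 after SFN (adjusted p = 0.464) and -0.004 ± 0.071 after DAC+SFN (adjusted p = 0.973).

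Lamc1 read 213, 244 and 216 CPM in the control libraries, 203, 223 and 210 in the DAC libraries, 237, 247 and 222 in the SFN libraries and 261, 247 and 236 in the DAC+SFN libraries. The ranges of Lamc1 overlapped between all groups but DAC and DAC+SFN. Its change after DAC+SFN was 0.15 ± 0.058 (adjusted p = 0.0649), and without DAC+SFN replicate 2 it was 0.19 (adjusted p = 0.0443).

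Itgb3bp (chromosome 4, 99765402 to 99929813, minus strand, mm10) fell in both SFN groups. It read 24.6, 17.3 and 19.7 CPM in the control libraries, 19.1, 11.5 and 17 in the DAC libraries, 14.8, 12.4 and 15.7 in the SFN libraries and 10.9, 8.91 and 13.6 in the DAC+SFN libraries. All SFN and DAC+SFN libraries lay below control, and DAC libraries were lower than control in each repeat. The change was -0.52 ± 0.117 on the log2 scale after SFN (adjusted p = 0.00871), -0.89 ± 0.121 after DAC+SFN (1.85-fold lower, adjusted p = 9.94e-05) and -0.38 ± 0.117 after DAC (unadjusted p = 0.00575, adjusted p = 0.248 by the edgeR fit). The SFN call of Itgb3bp was lost without control replicate 1 (-0.44, adjusted p = 0.072), control replicate 2 (-0.49, adjusted p = 0.0506) or SFN replicate 1 (-0.45, adjusted p = 0.0617). Of its exon bases, 8.59% are shared with Pgm1 on the opposite strand.

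Adding SFN to DAC changed 14 of the 22 genes, 12 up and 2 down (Itgb4 and Itgb3bp), against 16.1% of all genes (9.55% up and 6.6% down), with a median log2 fold change of 0.32 beside 0 over all genes. Itga8 alone passed 2-fold (2.76-fold), where 0.928% of all genes did. The increases included Itga8 (1.47 ± 0.21, adjusted p = 0.000478), Itga7 (0.87 ± 0.159, adjusted p = 0.00248), Lama5 (0.51 ± 0.12, adjusted p = 0.0107), Itga6 (0.50 ± 0.063, adjusted p = 0.000184) and Itgav (0.45 ± 0.057, adjusted p = 0.000181). Lamc1 was called in this comparison alone (0.23 ± 0.058, adjusted p = 0.0164). The count was 1 (Itgav) without the replicate block, where 0.172% of all genes were called, 7 without DAC replicate 1 and 9 without DAC+SFN replicate 1, where 7.67% and 6.62% of all genes were called. In the fits that each left out a single library, 6 of the 14 calls (Itgav, Itga4, Itga6, Itga7, Itga8 and Itgb1) were kept throughout.

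Adding DAC to SFN changed 0 of the 22 genes, against 1.61% of all genes, and 3 had an unadjusted p under 0.05 by the edgeR fit, where 17.8% of all genes did. These were Lama5 (0.36 ± 0.119, unadjusted p = 0.00872, adjusted p = 0.128), Itgb3bp (-0.37 ± 0.122, unadjusted p = 0.00855, adjusted p = 0.127) and Itga4 (0.21 ± 0.093, unadjusted p = 0.0406, adjusted p = 0.253). DESeq2 called 0 as well. With only the DAC+SFN and SFN libraries in the fit, 3 were called (Lama5, Itgb3bp and Itga4), and with no filter 1 was (Lama5). No share of all genes is given for these fits. In 20 of the 22 genes DAC+SFN was the higher, where 51.3% of all genes were, with a median log2 difference of 0.13. Lama5 (0.47, adjusted p = 0.0282) and Itgb3bp (-0.51, adjusted p = 0.0335) passed without DAC+SFN replicate 3, and Itga4 passed without DAC+SFN replicate 2 (0.36, adjusted p = 0.0348). By the labels this comparison also held a difference in SFN dose, which cannot be told apart from the addition of DAC.

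Whether the effect of DAC depended on SFN was tested as an interaction. Of the 22 genes 0 were called by edgeR and 0 by DESeq2, against 0% of all genes, and 0 had an unadjusted p under 0.05, where 5.87% of all genes did. The standard errors of the 22 interactions ran from 0.08 to 0.463 on the log2 scale, and a p above the threshold does not show that the effects added up. The median of the interactions was 0.09. Taken at the labels, the interaction also held the difference in SFN dose, which cannot be told apart from a dependence between the drugs.

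Many of these genes also differed between the culture repeats. By an F-test of the replicate number in the same edgeR fit, 14 of the 22 genes differed between repeats at an adjusted p under 0.05 (63.6%), against 33.9% of all genes. Itga3 had the widest spread, with means over the 4 groups of 5.82, 2.76 and 12.9 CPM in repeats 1 to 3, a 4.69-fold range (adjusted p = 3.59e-07). Itga7 ranged 3.47-fold with repeat 3 the highest (adjusted p = 9.93e-07), Lama5 1.87-fold with repeat 3 the highest (adjusted p = 4.45e-05) and Itga9 1.82-fold with repeat 2 the lowest (adjusted p = 8.46e-05). Itgav and Itga10 ranged 1.07-fold and 1.09-fold (adjusted p = 0.242 and 0.642). The library numbers in the labels follow the repeats, so that a library batch and the culture cannot be told apart.

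**Figure D4:**
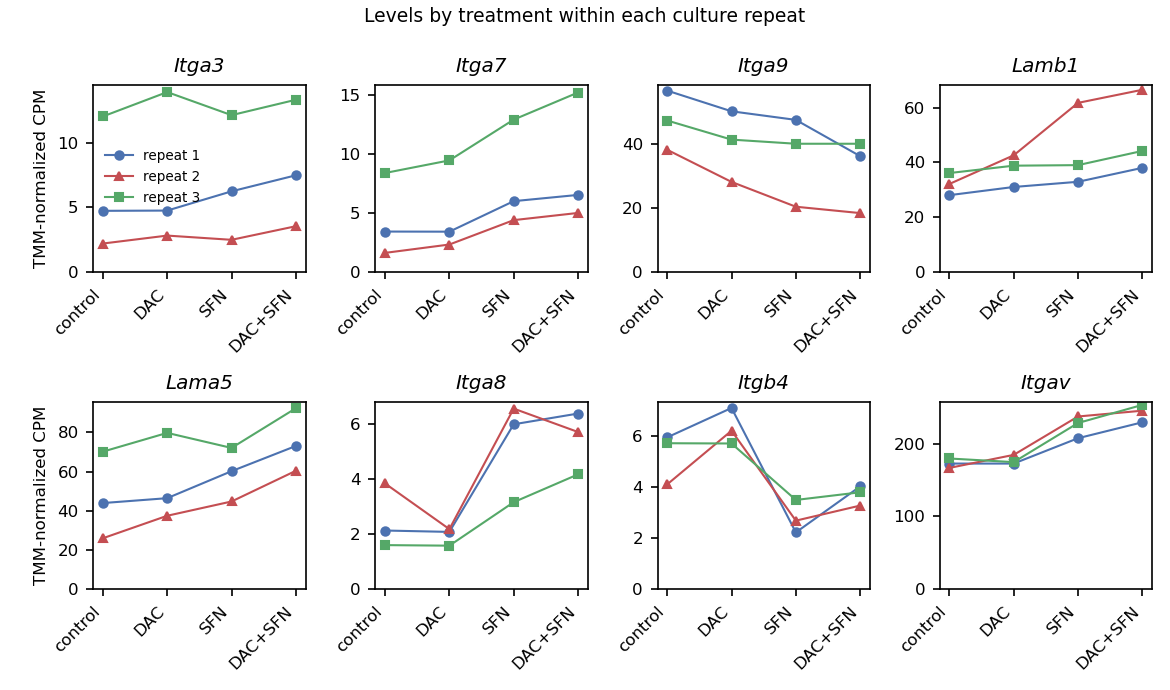
TMM-normalized CPM of 8 genes by treatment (horizontal axis), with a line for each of the 3 culture repeats. Lines for Itga3, Itga7 and Lama5 run apart from each other across all treatments, while those of Itgav lie close together and rise in SFN and DAC+SFN.

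The 16 genes below the filter include the leukocyte integrins. Itgad, Itgb2l and Itgb6 had 0 counts in all 12 libraries, which allows up to 0.191 CPM in the shallowest library by the floor of 3 counts, for counting error only. The β2 integrin subunit Itgb2 held 4 to 18 counts per library, and its α partners Itgal, Itgam and Itgax held 0 to 8, 0 to 3 and 0 to 2. Itgae and Itgb7, which pair on intraepithelial lymphocytes, held 0 to 12 and 0 to 10 counts. The collagen receptor subunits Itga2 and Itga11 held 4 to 22 and 0 to 10 counts. Among the laminins, Lama1, Lama2, Lama3, Lamb3 and Lamc3 held 0 to 1, 0 to 5, 4 to 26, 0 to 1 and 5 to 24 counts. These genes did not enter the tests. Itgad and Itgam carry the same gene identifier in the count files. Exon bases shared with a gene on the opposite strand made up 8.04% for Itga4 (Cerkl), 7.66% for Itgb4 (B230344G16Rik) and 5.9% for Itgav (Gm13684), and 3.68% of those of Itga1 lie in Gm49395 on the same strand. For Itgam, 68.67% of the exon bases are shared with Gm49368 on the same strand, so its counts are uncertain.

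Genes that act with integrins were counted from 3 lists chosen by function, with earlier results of these data known. The shares called in these lists are therefore not an independent test. Of 30 focal adhesion genes tested, 0 were called after DAC, 9 up and 2 down after SFN, and 19 up and 2 down after DAC+SFN, with a median log2 fold change of 0.17 after SFN and 0.28 after DAC+SFN. The called shares were 36.7% and 70%, against 13.9% and 31.6% of all genes. The 6 called genes with the largest DAC+SFN changes were Lims2, an adaptor of the ILK complex (1.97 ± 0.283 on the log2 scale, adjusted p = 0.000154), Ptk2b, the kinase Pyk2 (0.89 ± 0.129, adjusted p = 0.000167), Tns1, tensin (0.86 ± 0.154, adjusted p = 0.000851), Zyx, zyxin (0.58 ± 0.102, adjusted p = 0.000723), Vcl, vinculin (0.57 ± 0.067, adjusted p = 3.4e-05) and Actn4, α-actinin (0.48 ± 0.072, adjusted p = 0.000224). All 6 were also called up after SFN. Lims2 averaged 1.4 ± 0.465 CPM (SD, n = 3) in control cells, 1.58 ± 0.714 in DAC cells, 5.01 ± 0.94 in SFN cells and 5.6 ± 2.66 in DAC+SFN cells. The genes that fell, named after their values were seen, were the kindlin Fermt2 (-0.23 ± 0.056, adjusted p = 0.00618) and Kank2 (-0.25 ± 0.075, adjusted p = 0.0191). The kinase Ptk2 (FAK) and Ilk had changes of -0.03 ± 0.052 and 0.03 ± 0.051. Without the replicate block 7 of the 30 genes were called after DAC+SFN and 0 after SFN, where 10.3% and 0.198% of all genes were.

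Of 24 matrix ligands and basement membrane genes tested, 0 were called after DAC, 7 up and 3 down after SFN, and 12 up and 3 down after DAC+SFN, where the median log2 fold change was 0.36. The called shares were 41.7% and 62.5%, against 13.9% and 31.6% of all genes. The largest DAC+SFN increases were in the matricellular integrin ligands Ctgf (1.29 ± 0.185 on the log2 scale, adjusted p = 0.000151), Cyr61 (1.10 ± 0.204, adjusted p = 0.00106) and Thbs1 (0.98 ± 0.15, adjusted p = 0.000252), followed by osteopontin, Spp1 (0.89 ± 0.148, adjusted p = 0.000493), the αv ligand Mfge8 (0.75 ± 0.078, adjusted p = 1.11e-05) and the collagen IV chain Col4a5 (0.75 ± 0.097, adjusted p = 7.23e-05). Thbs1 varied widely between repeats, at 87.7 ± 89.1 CPM in control and 146 ± 107 with DAC+SFN. The genes that fell, named after their values were seen, were the α8 ligand Npnt (-0.67 ± 0.165, adjusted p = 0.007), Fbln1 (-0.51 ± 0.09, adjusted p = 0.000709) and L1cam (-0.33 ± 0.091, adjusted p = 0.0132). Without the replicate block 4 of the 24 were called after DAC+SFN and 0 after SFN, where 10.3% and 0.198% of all genes were.

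Of 28 other laminin receptors and integrin regulators tested, 0 were called after DAC, 5 up and 1 down after SFN, and 7 up and 1 down after DAC+SFN (median log2 fold change 0.1), the gene that fell being Itgb3bp in both. The called shares of 21.4% and 28.6% stood against 13.9% and 31.6% of all genes, so that after DAC+SFN the share lay below that of all genes. The called increases included the Lutheran laminin receptor Bcam (0.90 ± 0.155 on the log2 scale after DAC+SFN, adjusted p = 0.000636) and the syndecan Sdc3 (0.62 ± 0.08, adjusted p = 6.94e-05). The tetraspanins Cd81 (0.48 ± 0.057, adjusted p = 3.21e-05) and Cd151 (0.47 ± 0.063, adjusted p = 8.67e-05), which associate with laminin-binding integrins, and the exchange factor Rapgef3 (0.40 ± 0.119, adjusted p = 0.0194) followed. The dystroglycan gene Dag1 had a change of -0.004 ± 0.05. Without the replicate block 4 of the 28 were called after DAC+SFN and 0 after SFN, against the same 10.3% and 0.198%.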

How the data were processed

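RNA-seq read counts per gene of 12 B16F10 samples were used, in 4 groups of 3 taken from the sample labels. The deposited counts are whole numbers without normalization: per the methods, the authors used Trimmomatic 0.38 for trimming and TopHat2 2.1.1 for alignment to mm10, discarded multimapped reads, and counted with HTSeq. The kit was stranded; the strand setting and annotation used for counting are not given in the sources used here. The 11638 of 24421 genes reaching 1 CPM in 3 or more libraries were scaled by TMM and tested with edgeR 4.0.16 (glmQLFTest, legacy fit; R 4.3.3) on all 12 samples, blocking on the replicate number in place of the batch term of the methods, which is not named there. Same-numbered libraries deviated together in all 18 pairs (correlation 0.27 to 0.732, mean 0.544), by which the samples were paired. Pairs with different numbers had a mean of -0.267 and reached 0.282 (DAC 1 with DAC+SFN 3). This lay above DAC+SFN 1 with control 1 (0.27) and with DAC 1 (0.276), so that the pairing was weakest for DAC+SFN 1. Standard errors (SE) were log2 changes over the square root of F. Fold changes used a prior count of 0.125. On simulated counts with 200 changed genes for DAC+SFN against control, 166 were recovered with 13 false calls among 11594 genes, 28 of 50 at 1.3-fold and 48 of 50 at 2-fold. In the data 3683 of 11638 genes were called in that comparison, so the recovery and false calls there may differ. These figures cover that comparison only.

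Replicates were distinct libraries (chi-square of 13.2 to 35.9 per gene between them). Positions and exon lengths were from GENCODE M21 on mm10, and Cyr61, Ctgf and Large were matched by their older symbols. Genes were given values per library where called in at least 1 comparison or among the 8 highest per kilobase; of each list, the 6 called genes with the largest DAC+SFN change were named. The symbol pattern matched 39 genes, of which 1 is not reported here. The genes and lists were chosen with earlier results of these data known. Alternatives were DESeq2 1.42.0 (test and size factors), 2 other filters, no replicate block, robust and version 4 edgeR fits, only the groups compared, and leaving out each library or repeat.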

Additional observations from a re-analysis of the deposited data

How the results depend on the processing

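The replicate block decided most calls. Without it, the genes called among the 22 numbered 0 after SFN (13 with it), 6 after DAC+SFN (17), 1 for DAC+SFN against DAC (14) and 0 in the other comparisons, and the listed genes called after SFN and DAC+SFN numbered 0 and 7 (focal adhesion), 0 and 4 (ligands and basement membrane) and 0 and 4 (other receptors and regulators). With only the groups compared in the fit, 4 genes were called after DAC (Lama5, Itgb3bp, Itga5 and Itga9) and 3 for DAC+SFN against SFN (Lama5, Itgb3bp and Itga4), and with no filter 1 was in the latter (Lama5). No share of all genes is given for these fits, so whether their counts exceed it cannot be told.

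With single libraries left out the counts ran from 5 to 13 after SFN, 14 to 18 after DAC+SFN, 7 to 16 for DAC+SFN against DAC and 0 to 2 for DAC+SFN against SFN, and stayed at 0 after DAC and for the interaction. The share of all genes called ran from 6.26% to 18.1% after SFN, 20.1% to 36.1% after DAC+SFN and 6.62% to 20.5% for DAC+SFN against DAC. With a whole repeat left out the counts ran from 5 to 13, 12 to 17, 4 to 15 and 0 to 0 in the same order of comparisons. The share of all genes then ran from 3.73% to 15.5% after SFN, 12.7% to 34.9% after DAC+SFN and 2.12% to 20.6% for DAC+SFN against DAC. Of 44 called pairs of gene and comparison, 5 kept their call under all 23 alternatives and 0 changed direction. With libraries or repeats left out, near-zero changes after DAC+SFN changed sign. Lamb2 (-0.004) ran from -0.089 to 0.044: it was 0.036 without control replicate 3, 0.020 without DAC+SFN replicate 1, 0.016 without DAC+SFN replicate 3, 0.012 without replicate 1 and 0.044 without replicate 3, and Itgb3 (0.032), which ran from -0.045 to 0.107, was -0.024 without control replicate 2, -0.014 without DAC+SFN replicate 1, -0.014 without DAC+SFN replicate 2 and -0.045 without replicate 2. The causes were not tested. Depth limits Itgb8, Itga2b, Itga8, Itga10 and Itgb4, which held fewer than 200 counts in every library, and the 16 genes below the filter.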
